A study of Mus musculus with 33 samples.

Results

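The comparison of late with early ovariectomy in the preoptic area (POA) rests on 12 libraries of 33 in the series, 6 from the POA of mice 4 months after bilateral ovariectomy (OVX) and 6 from the POA of mice 14 days after it. All mice were WT C57BL/6 females. They lost both ovaries at 3 to 4 months of age, and the tissue was dissected and flash-frozen for bulk RNA-seq of poly(A) RNA. A further 5 POA libraries came from intact females collected in diestrus. They enter the filter, the covariate and the estimate of the spread, and otherwise only place the levels. The 5 are titled sham, but are called intact under genotype and in the study's methods. The study had no intact controls of the age of the 4-month group, so that time since OVX and age cannot be told apart. The labels place replicates 1 to 3 of both OVX groups in batch 1 and replicates 4 to 6 in batch 2. They do not say that each library came from its own mouse, and *P* values measure the spread between these libraries. All entries with a gene name, 41565 of 42824, belong to the comparison. Only genes with a value of at least 44.2, which is 2 times the floor, in 5 or more POA libraries were tested. This left 21358 genes, 16172 of them protein-coding. Deposited values are normalized signal on a linear scale, not counts, and unexpressed genes lie near 22.1 instead of 0, so that fold changes of weakly expressed genes are understated.

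The POA lies at the front of the hypothalamus. It holds the neurons that set core body temperature, among them those that carry the prostaglandin E2 receptor EP3, and most of the neurons that release gonadotropin-releasing hormone. OVX removes the ovarian source of estrogen and progesterone. Immediate early genes are transcribed within minutes of a stimulus, in neurons mostly after calcium entry, without the need for new protein. Their products are transcription factors such as those of the FOS, EGR and NR4A families, and feedback regulators that switch the response off.

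The 12 libraries correlated with each other at 0.976 to 0.993 over log2 values. All 15 neuronal, 14 astrocyte and 14 preoptic markers listed were high enough to be tested in the POA. Replicate 6 of the 14-day group stood apart. Its deposited values had the lowest sum of the POA libraries, 44630000 against 48310000 to 54050000. Relative to the mean of the 12 libraries, its mean log2 level of the posterior hypothalamic list was the highest at 0.653, with the other POA libraries between -0.713 and 0.403. Its level of the preoptic list was the lowest at -0.533, close to the -0.488 of replicate 3 at 4 months. RNA of the anterior pituitary, a gland below the hypothalamus, moved with the groups. *Prl*, the prolactin gene, was listed at 30.3 to 2920 at 14 days with a median of 608, and at 22.3 to 36.5 at 4 months with a median of 22.9. The 14-day replicates 1, 2, 4 and 5 exceeded 10 times the floor, as did 1 intact library and no library at 4 months. Of the 10 pituitary genes listed, 6 were tested, all 6 had negative log2 fold changes with a median of -2.27, and their mean log2 level relative to the 12 libraries ranged from -0.931 to 2.51 at 14 days and from -1.37 to -0.697 at 4 months. The other 4, *Fshb*, *Pou1f1*, *Gnrhr* and *Ghrhr*, stayed below the limit for testing. For *Prl*, *Gh* and *Cga* every library at 4 months also lay below this limit. These genes could be tested only through 14-day or intact libraries, so the filter itself favored their negative sign. The count of negative genes and the median of the list are therefore descriptive only. *Pomc* lay above the limit in all 12 libraries. Single adjusted *P* values for *Prl*, *Gh*, *Pomc* and *Cga* lay between 0.66 and 0.739. The values of the genes called and of several gene lists are therefore also given without the 5 libraries with *Prl* above 10 times the floor, a choice made after seeing the data. At 14 days this left only replicates 3 and 6, and replicate 6 is the library that stood apart. *Prl* was 87.7 in replicate 6, so the reduced set was not free of pituitary RNA. The median of the pituitary list was then -0.529. Among the other 78 named genes that were tested, 5 had the opposite sign without the 5 libraries (*Esr1*, *Gfap*, *Gnrh1*, *Pgr* and *Tspo*) and 26 more kept their sign but moved by over 1.5 times.

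At 4 months, 5 protein-coding genes were higher than at 14 days and none was lower at an adjusted *P* under 0.05 (limma, adjusted over all 21358 genes), 0.0309% of the 16172 tested. These were *Btg2* and *Tob1*, antiproliferative regulators of mRNA decay, *Dusp1*, a phosphatase that switches off MAP kinases, *Npas4*, a transcription factor induced by neuronal activity, and *Depp1*, a target of FOXO factors and steroids. Their fold changes ran from 1.25 for *Tob1* to 1.93 for *Btg2*. The only other gene called was the long noncoding RNA *9630013A20Rik*, at 0.549 of its 14-day level, which brings the calls to 6 of 21358 genes or 0.0281%. Without a correction for the number of genes, 398 protein-coding genes were higher at 4 months with *P* under 0.05 (2.46%) and 437 were lower (2.7%). Together these are 835, against 1598 without replicate 6 of the 14-day group. The median protein-coding gene had a log2 fold change of -0.00367 with a median SE of 0.0837, and 48.1% of them had a positive value. In bulk tissue, a change in the number of cells of a type and a change in RNA per cell cannot be told apart.

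**Figure D1:**
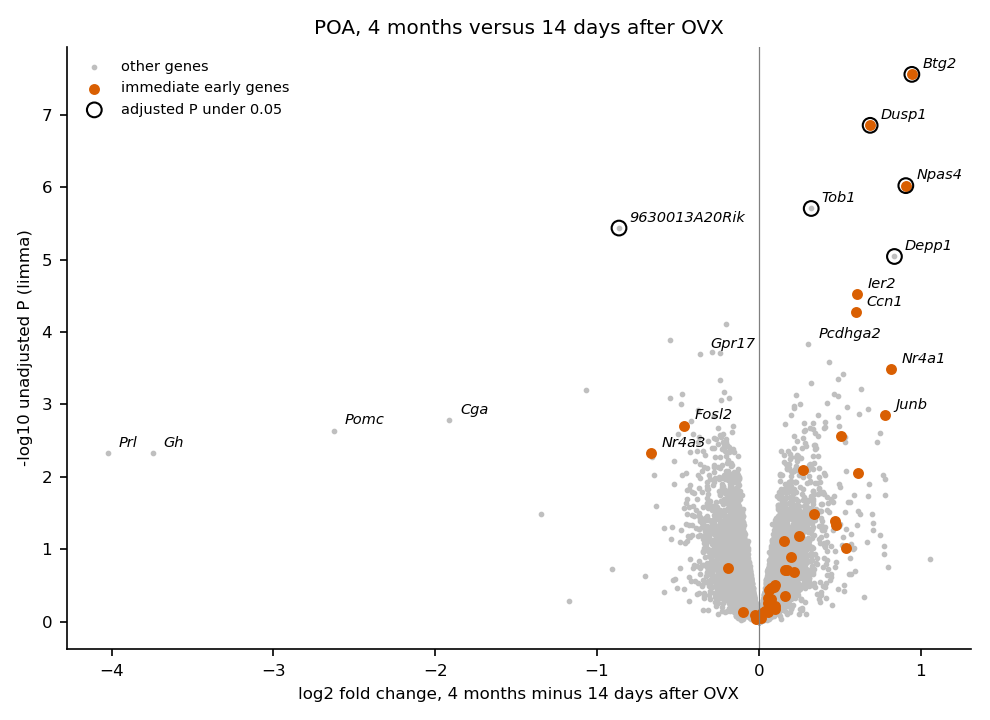
Log2 fold change of each protein-coding gene and of *9630013A20Rik* (x axis, 4 months minus 14 days after OVX in the POA) against -log10 of the unadjusted *P* of limma (y axis). Circles mark the 6 genes called, 5 of them to the right of 0, filled orange points are the 40 immediate early genes, and the 4 labelled pituitary genes lie far to the left with *P* values that did not pass.

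*Btg2* and *Tob1* belong to the BTG/TOB family, whose members bind the CCR4-NOT deadenylase and restrain cell division. *Btg2* (chromosome 1, 134002908 to 134015033 of GRCm39, minus strand) had deposited values of 378 to 532 at 14 days, with a median of 459.6, and of 774 to 962 at 4 months, with a median of 889.6. All 6 libraries at 4 months lay above all 6 at 14 days and also above the 5 intact ones, which ranged from 395 to 705. The log2 fold change was 0.95 ± 0.11 (SE, adjusted *P* = 0.000592), at 0.96 within batch 1 and 0.92 within batch 2. *Tob1* (chromosome 11, 94102258 to 94106334, plus strand) had values of 1452 to 2205 at 14 days (median, 1863) and of 2033 to 2702 at 4 months (median, 2290). Its levels differed between the batches, so that the groups overlapped over all libraries, but within each batch every library at 4 months was above every one at 14 days. The log2 fold change of *Tob1* was 0.32 ± 0.05 (adjusted *P* = 0.0105). The related *Tob2*, with a log2 fold change of 0.23 ± 0.08 (adjusted *P* = 0.812), and *Btg1*, with 0.19 ± 0.10 (adjusted *P* = 1), were not called. Of the 5 family members tested, 4 had positive fold changes and the median was 0.226. Among all protein-coding genes, 48.1% were positive and 0.0309% were called. *Btg4*, the last of the 6 listed, was too low to be tested.

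*Dusp1* encodes a dual-specificity phosphatase that removes phosphate from p38, JNK and ERK, and is itself induced by these kinases and by glucocorticoids. The gene lies on the minus strand of chromosome 17, at 26724564 to 26781102 of GRCm39. Its values were 500 to 781 at 14 days (median, 654) and 860 to 1317 at 4 months (median, 1010), without overlap. The log2 fold change was 0.69 ± 0.09 (adjusted *P* = 0.00149), at 0.73 and 0.63 within the batches. Of 18 genes of MAP kinase feedback tested, *Dusp1* alone was called, where 0.0309% of protein-coding genes were. In this list 10 were positive and 8 negative, beside 48.1% positive among protein-coding genes, and the median was 0.0189. *Spry1*, which blocks receptor tyrosine kinase signaling, had 0.28 ± 0.10 (adjusted *P* = 0.812), and *Spred3*, a related inhibitor of RAS signaling, had -0.13 ± 0.05 (adjusted *P* = 0.965).

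The promoters of *Btg2* and *Dusp1* are shown because they held the full cAMP response element (CRE), the palindrome TGACGTCA to which CREB binds, among the genes called. The sequences are RefSeq reference sequence of build GRCm38.p6, 5′ to 3′ on the strand of the gene, 100 bases each, with the CRE in capitals. In *Btg2* (chr1:134079268-134079367, minus strand) the CRE began at position -166 from the RefSeq start of the gene, and in *Dusp1* (chr17:26508562-26508661, minus strand) at position -143. These RefSeq starts on GRCm38.p6 are not the ends of the GRCm39 spans given above, which come from another annotation.
Btg2: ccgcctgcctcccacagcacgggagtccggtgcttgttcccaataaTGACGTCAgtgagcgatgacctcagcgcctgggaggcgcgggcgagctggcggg
Dusp1: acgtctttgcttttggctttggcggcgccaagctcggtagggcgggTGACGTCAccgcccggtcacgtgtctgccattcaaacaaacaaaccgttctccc
In the 250 bases before the start, the full CRE was found for 2 of 6 genes called (33.3%) and for 4 of the 33 immediate early genes with a RefSeq window (12.1%), the other 2 being *Ppp1r15a* and *Maff*. Over the 12483 protein-coding genes tested that had a window, 340 held it (2.72%). A CArG box (CC, 6 bases A or T, GG), to which serum response factor binds, was in none of the 6 windows, in 9.09% of the immediate early genes and in 1.46% of the tested genes. The AP-1 site TGANTCA was in none of the 6, in 6.06% of the immediate early genes and in 5.9% of the tested genes. An NF-κB site was found for *Npas4* only among the 6, in 27.3% of the immediate early genes and in 10.7% of the tested genes. Both strands were searched, and a gene with several windows counted once. These counts describe letters in the reference and not binding.

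**Figure D2:**
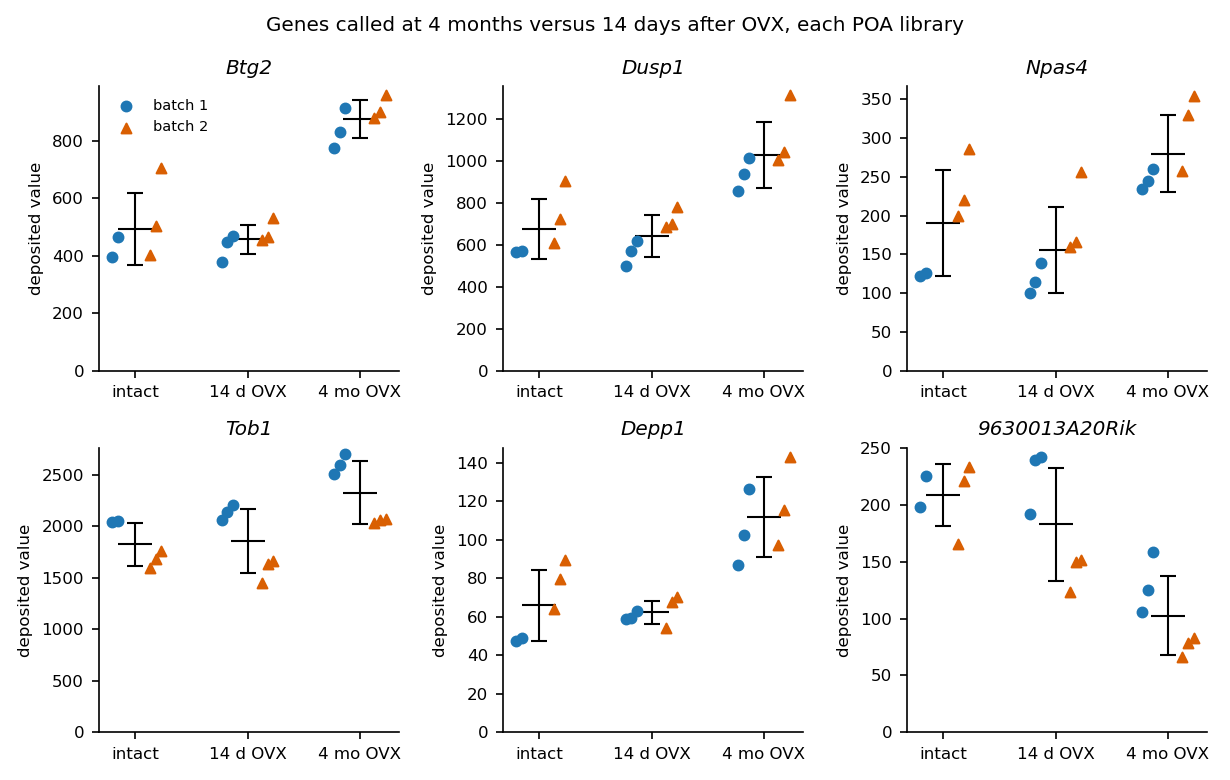
Deposited value (y axis, linear scale from 0) of the 6 genes called, in each POA library, by group (x axis), with circles for batch 1 and triangles for batch 2. Bars are the mean and SD of a group, and for *Btg2*, *Dusp1* and *Depp1* all libraries at 4 months lie above all at 14 days.

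*Npas4* is transcribed in neurons after calcium entry and controls the inhibitory synapses that a neuron receives. The gene lies on the minus strand of chromosome 19, at 5034382 to 5040344 of GRCm39. It was listed at 100 to 256 at 14 days (median, 149) and at 234 to 354 at 4 months (median, 259). Replicate 6 was the highest of the 14-day group at 256, and the groups overlapped only there, whereas within each batch they did not overlap. The log2 fold change was 0.91 ± 0.13 (adjusted *P* = 0.00678), at 1.07 within batch 1 and 0.71 within batch 2. Intact libraries ranged from 122 to 285.

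Of the 40 immediate early genes listed, all 40 were tested. Besides *Btg2*, *Dusp1* and *Npas4*, none was called, where 0.0309% of protein-coding genes were. In all, 34 were positive and 6 negative, where 48.1% of protein-coding genes were positive, and the median log2 fold change was 0.159, at 0.121 within batch 1 and 0.209 within batch 2. Without the libraries with *Prl* above 10 times the floor, 30 were positive and 10 negative, with a median of 0.101. It was lowest, at 0.099, without replicate 4 at 4 months. Unadjusted *P* values of limma were under 0.05 for 13 higher and 2 lower members, against 2.46% and 2.7% of protein-coding genes. In both batches 8 members lay above the 14-day group without overlap, against 0.291% of protein-coding genes. The mean log2 level of the list, relative to the 12 libraries, ran from -0.284 to 0.0915 at 14 days and from -0.0514 to 0.323 at 4 months, so that the groups overlapped. In the intact libraries it ran from -0.199 to 0.352.

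*Ier2* and *Ccn1* came closest to the call. *Ier2*, a nuclear protein induced by growth factors, had values of 123 to 198 at 14 days (median, 146) and 212 to 257 at 4 months (median, 230.2). *Ccn1*, a secreted matrix protein, had 174 to 216 (median, 188) and 244 to 351 (median, 278). In neither gene did the groups overlap, and the log2 fold changes were 0.61 ± 0.11 (adjusted *P* = 0.0915) for *Ier2* and 0.60 ± 0.12 (adjusted *P* = 0.14) for *Ccn1*. *Nr4a1*, an orphan nuclear receptor, had 346.5 to 797 at 14 days (median, 520.4) and 615 to 1361 at 4 months (median, 836). *Junb*, an AP-1 subunit, had 262 to 811 (median, 465) and 573 to 1214 (median, 766). Both overlapped over all libraries and not within a batch, with log2 fold changes of 0.82 ± 0.18 (adjusted *P* = 0.413) and 0.78 ± 0.20 (adjusted *P* = 0.63). *Fos*, the usual marker of neuronal activation, had 619.6 to 993 (median, 851) and 747 to 1560 (median, 1197), and its log2 fold change of 0.47 ± 0.21 did not pass (adjusted *P* = 0.967).

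Of the 6 members with negative fold changes, the 2 with an unadjusted *P* under 0.05 were named after their values were seen. *Fosl2*, another AP-1 subunit, had values of 888 to 1173 at 14 days (median, 922) and 544.5 to 943 at 4 months (median, 657). *Nr4a3*, a receptor of the family of *Nr4a1*, had 623 to 982 (median, 784) and 260 to 690 (median, 553). Of the libraries at 4 months, 5 lay below all at 14 days for *Fosl2* and 3 for *Nr4a3*. Their log2 fold changes were -0.46 ± 0.13 (adjusted *P* = 0.702) and -0.66 ± 0.20 (adjusted *P* = 0.739).

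**Figure D3:**
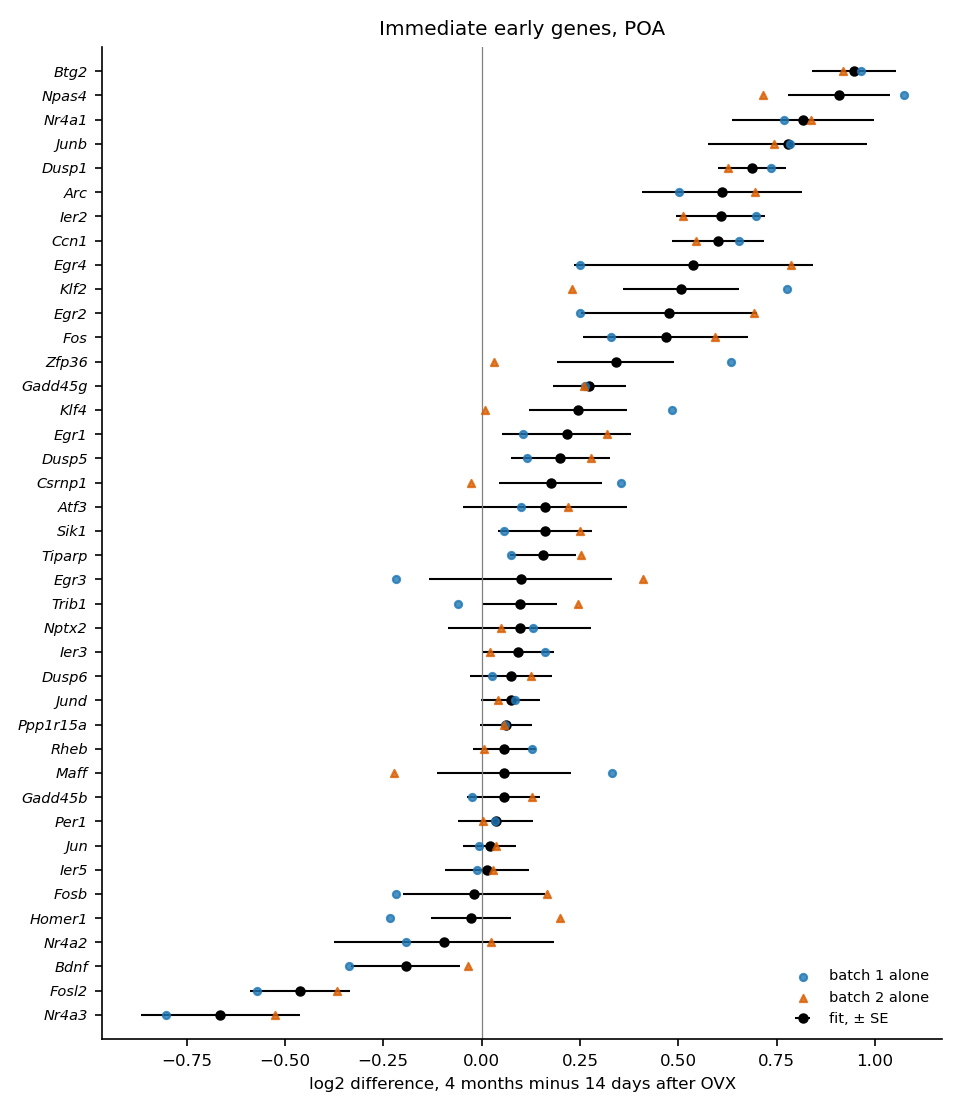
Log2 difference between 4 months and 14 days after OVX (x axis) for each of the 40 immediate early genes tested (y axis). Black points are the fit over all POA libraries with its SE, blue circles and orange triangles are the differences within batch 1 and batch 2, and 34 of the 40 black points lie to the right of 0.

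Values against intact mice share the 14-day or the 4-month libraries with the comparison above and are given side by side only. For *Btg2*, *Dusp1*, *Depp1* and *Tob1* the log2 differences between 14 days and intact were -0.06 ± 0.11, -0.0048 ± 0.09, 0.00098 ± 0.15 and -0.04 ± 0.05, and those between 4 months and intact were 0.89 ± 0.11, 0.68 ± 0.09, 0.84 ± 0.15 and 0.28 ± 0.05. For *Nr4a1* and *Junb* they were -0.43 ± 0.19 and -0.49 ± 0.21 at 14 days, and 0.39 ± 0.19 and 0.29 ± 0.21 at 4 months. For *Npas4* the difference was -0.17 ± 0.14 at 14 days and 0.74 ± 0.14 at 4 months, and for *9630013A20Rik* it was -0.31 ± 0.14 and -1.18 ± 0.14. The median over the 40 immediate early genes was -0.112 for 14 days minus intact and 0.0693 for 4 months minus intact.

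*Depp1* is raised by progesterone, glucocorticoids and FOXO factors and acts on autophagy. The gene lies on the plus strand of chromosome 6, at 116627570 to 116629755 of GRCm39. It was weakly expressed, at 54 to 70.5 at 14 days (median, 61.2) and 86.9 to 143 at 4 months (median, 109), without overlap. The log2 fold change was 0.84 ± 0.14 (adjusted *P* = 0.0323). *Depp1* and *Dusp1*, the latter already counted above, were the 2 genes called among 25 tested genes induced by glucocorticoids. Of these, 19 were positive with a median of 0.126, where 0.0309% of protein-coding genes were called and 48.1% were positive. The list median was -0.127 for 14 days minus intact and -0.00185 for 4 months minus intact. *Cebpd*, a transcription factor of the acute phase response, had values of 89.2 to 132 at 14 days (median, 109) and 95.9 to 178 at 4 months (median, 159), and 5 of the 6 libraries at 4 months lay above all at 14 days. Its log2 fold change was 0.49 ± 0.12 (adjusted *P* = 0.491). *Glul*, the glutamine synthetase of astrocytes, had 0.21 ± 0.06 (adjusted *P* = 0.593), *Ddit4*, an inhibitor of mTORC1, had 0.37 ± 0.10 (adjusted *P* = 0.63), and *Sult1a1*, a sulfotransferase, had 0.42 ± 0.11 (adjusted *P* = 0.593).

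*9630013A20Rik*, a long noncoding RNA on chromosome 14 (84696079 to 84713864 of GRCm39, minus strand), was listed at 123 to 241 at 14 days (median, 172) and at 66.2 to 158 at 4 months (median, 94.3). Levels were higher in batch 1, and within each batch all 3 libraries at 4 months were below all 3 at 14 days. The log2 fold change was -0.86 ± 0.14 (adjusted *P* = 0.0157). Intact libraries ranged from 165.5 to 233, above the 4-month group.

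The calls of these 6 genes depended on the libraries used. Without the 5 libraries with *Prl* above 10 times the floor, only 2 libraries of the 14-day group remained, replicates 3 and 6. No gene was then called (smallest adjusted *P* = 0.361, 777 protein-coding genes with an unadjusted *P* under 0.05). The log2 fold changes were 0.91 ± 0.17 for *Btg2*, 0.73 ± 0.13 for *Dusp1*, 0.82 ± 0.19 for *Npas4*, 0.37 ± 0.08 for *Tob1*, 0.98 ± 0.22 for *Depp1* and -0.84 ± 0.21 for *9630013A20Rik*. With the pituitary level as a further covariate no gene was called either (smallest adjusted *P* = 0.091), and the values for *Btg2* and *Dusp1* were 0.99 ± 0.15 and 0.72 ± 0.13. Without replicate 6 of the 14-day group, 5 protein-coding genes were called, of which 4 were the same, and 1598 had an unadjusted *P* under 0.05.

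The PH, the posterior hypothalamus, was dissected in the same study. By the study's methods both regions were taken from the females of each group, so the PH values are not an independent repeat. The labels do not pair the libraries by mouse. The change in the PH between the same times was 0.64 ± 0.13 for *Btg2*, 0.38 ± 0.18 for *Dusp1*, 0.95 ± 0.20 for *Npas4*, 0.30 ± 0.10 for *Tob1*, 0.82 ± 0.25 for *Depp1* and -0.99 ± 0.16 for *9630013A20Rik*. In the PH none of these passed, with adjusted *P* of 0.0659 for *9630013A20Rik*, 0.214 for *Btg2*, 0.215 for *Npas4* and 1 for the others. In the test of the difference between the regions itself, 0 of 16674 protein-coding genes (0%) were called by limma, with a smallest adjusted *P* of 1 over 23011 genes. At an unadjusted *P* under 0.05, 328 protein-coding genes (1.97%) differed in this fit, which left the regions unpaired. With a replicate block across regions, 579 had an unadjusted *P* under 0.05 by limma and 0 were called. The difference was 0.30 ± 0.17 for *Btg2* (adjusted *P* = 1), 0.35 ± 0.20 for *Dusp1* (adjusted *P* = 1) and 0.07 ± 0.27 for *Npas4* (adjusted *P* = 1). The 5 genes with the smallest *P* were the protein-coding *Gm34066* and *Bpifc*, at -1.35 ± 0.31 and 0.60 ± 0.16, the pseudogene *Gm5879*, at 0.98 ± 0.24, and the long noncoding *Gm12264* and *Gm13919*, at -0.83 ± 0.19 and -0.96 ± 0.24 (adjusted *P* = 1 for each).

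**Figure D4:**
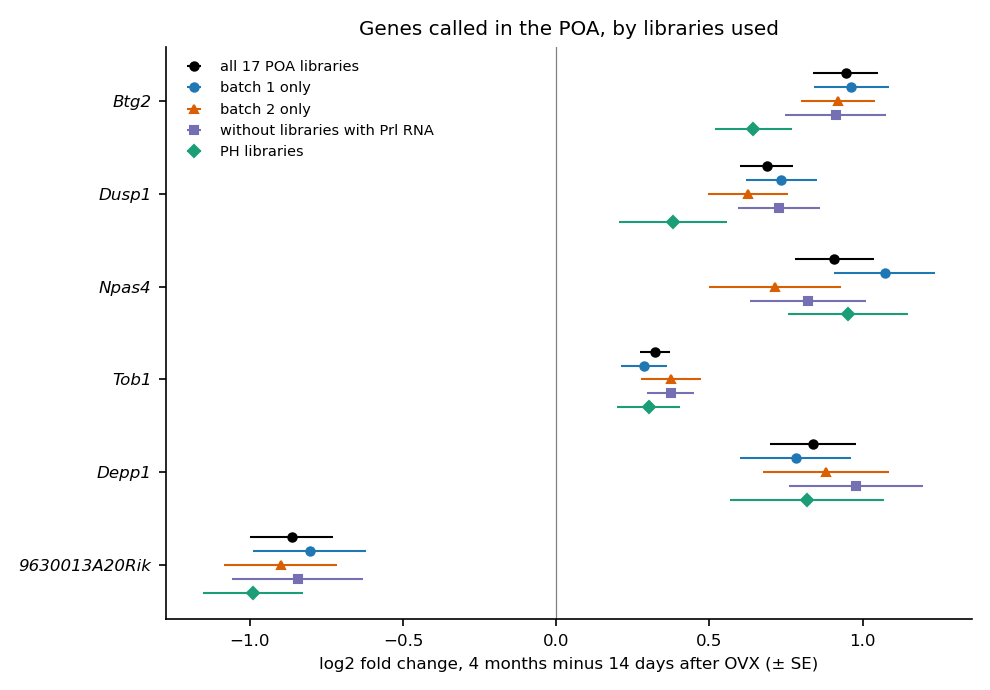
Log2 fold change with its SE (x axis) for the 6 genes called, from all 17 POA libraries, from batch 1 or batch 2 alone, without the 5 libraries with *Prl* above 10 times the floor, and from the PH libraries. Every value for the 5 higher genes lies to the right of 0, between 0.29 and 1.07, and every value for *9630013A20Rik* to the left.

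Irrespective of the adjusted *P*, 14 protein-coding genes (0.0866%) had all 6 libraries at 4 months above all 6 at 14 days, and 6 (0.0371%) had them below. Within the batches taken one by one, 47 (0.291%) lay above and 36 (0.223%) below. Besides *Btg2*, *Dusp1*, *Depp1*, *Ier2* and *Ccn1*, the 14 included *Pcdhga2* and, named after their values were seen, *Adamts1* and *Creb5*. *Adamts1*, a protease of the extracellular matrix, had means of 519 ± 76.2 and 827 ± 254 (SD, n = 6 each) and a log2 fold change of 0.63 ± 0.15 (adjusted *P* = 0.561 by limma). *Creb5*, of the CREB and ATF family, had means of 474 ± 44.6 and 642 ± 81.9 (SD, n = 6 each) and 0.43 ± 0.10 (adjusted *P* = 0.347 by limma).

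Among inflammatory genes, the list of targets of TNF-α through NF-κB had 171 genes tested. Its only calls were *Btg2* and *Dusp1*, which are also immediate early genes, 108 members were positive and 63 negative, and the median was 0.0418. Over all protein-coding genes, 0.0309% were called and 48.1% were positive. The list median was 0.0329 within batch 1 and 0.0503 within batch 2. At an unadjusted *P* under 0.05 by limma, 22 members were higher and 6 lower, against 2.46% and 2.7% of protein-coding genes. Without overlap in both batches, 7 members lay above the 14-day group and 1 below, against 0.291% and 0.223%. *Nfkbia*, the inhibitor that NF-κB itself induces, had 0.24 ± 0.10 (adjusted *P* = 0.965). The cytokine genes *Tnf* and *Il6* were too low to be tested, at 22.2 to 34.5 and 24.95 to 37.1 at 14 days and at 22.1 to 31.6 and 22.1 to 30.7 at 4 months. No gene was called among 57 interferon-stimulated genes (median, 0.0268), 16 MHC class I genes (median, 0.0626) or 49 genes of the IL6/JAK/STAT3 response (median, 0.0168). In the IL6/JAK/STAT3 list *Pim1*, a kinase induced by STAT3, had -0.50 ± 0.14 (adjusted *P* = 0.712) and *Cntfr*, the receptor subunit for ciliary neurotrophic factor, 0.11 ± 0.04 (adjusted *P* = 0.914). For the interferon list the median was 0.136 within batch 1 and -0.135 within batch 2. Without the libraries with *Prl* above 10 times the floor, the medians were -0.15 for the interferon, -0.158 for the MHC class I and -0.0269 for the IL6/JAK/STAT3 list. There replicates 3 and 6 alone made up the 14-day group. Leaving out only replicate 6 of the 14-day group gave 0.0806, 0.209 and 0.0403. *Irf1*, the transcription factor that drives much of the interferon response, had 0.29 ± 0.13 (adjusted *P* = 0.965).

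No complement gene was called either, with a median of 0.0109 over 22 tested that ran from -0.0253 to 0.0682 with single libraries left out. *C4b*, a component of the classical pathway that astrocytes and oligodendrocytes make, had values of 1255 to 3054 at 14 days (median, 1856) and of 1752 to 3520 at 4 months (median, 2961). The groups overlapped over all libraries and not within a batch. Its log2 fold change was 0.49 ± 0.12 (adjusted *P* = 0.561), beside 0.49 ± 0.13 for 14 days minus intact. In the PH *C4b* was higher at 4 months than at 14 days by 0.95 ± 0.12 (adjusted *P* = 0.00371), and the difference between the regions was -0.42 ± 0.20 (adjusted *P* = 1). *C1qa*, *C1qb* and *C1qc*, the chains of C1q that microglia make, had 0.24 ± 0.07, 0.16 ± 0.08 and 0.20 ± 0.07 (adjusted *P* = 0.739, 0.977 and 0.812).

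Of the 21 microglial genes, 16 were positive with a median of 0.0866, and none was called. Among all protein-coding genes, 48.1% were positive. *Aif1*, which encodes the microglial marker IBA1, had -0.07 ± 0.10 (adjusted *P* = 1), and *Tspo*, the mitochondrial protein used to image glial activation, 0.09 ± 0.12 (adjusted *P* = 1). *Gfap* and *Vim*, the intermediate filaments of astrocytes, had 0.04 ± 0.17 and -0.07 ± 0.17 (adjusted *P* = 1 for each), and the batches gave *Vim* opposite signs, 0.28 and -0.42. Replicate 6 of the 14-day group had the highest value of the 12 libraries for both, 16320 for *Gfap* and 3517 for *Vim*, and without it the log2 fold changes were 0.19 ± 0.13 and 0.12 ± 0.09. Without the libraries with *Prl* above 10 times the floor they were -0.27 ± 0.20 and -0.35 ± 0.26, with replicate 6 as 1 of the 2 libraries left at 14 days. *Aldoc*, an astrocytic enzyme of glycolysis, had 0.16 ± 0.04 (adjusted *P* = 0.695). The 28 reactive astrocyte genes had a median of 0.0246, at 0.158 within batch 1 and -0.122 within batch 2. Replicate 6 of the 14-day group stood at 0.468 on this list, against 0.039 and -0.0534 in the other 14-day libraries of batch 2, and without it the median was 0.0891. Without the libraries with *Prl* above 10 times the floor it was -0.105, again with replicate 6 kept.

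*Ptgs2*, the inducible cyclooxygenase that starts prostaglandin synthesis in fever, had values of 77.9 to 152 at 14 days (median, 94.1) and of 99.2 to 192 at 4 months (median, 145). In 3 of 6 libraries at 4 months it was above all at 14 days, and the log2 fold change was 0.54 ± 0.18 (adjusted *P* = 0.812), at 0.70 and 0.39 within the batches. The highest value at 14 days was that of replicate 6, with the next at 114. With single libraries left out, the log2 fold change ran from 0.47, without replicate 3 at 4 months, to 0.70, without replicate 6 at 14 days. *Ptger3*, the EP3 receptor through which prostaglandin E2 acts on thermoregulatory neurons, had 314 to 568 (median, 497) and 308 to 432 (median, 416), with a log2 fold change of -0.25 ± 0.11 (adjusted *P* = 0.965). *Tbxas1* and *Hpgds*, synthases of thromboxane and prostaglandin D2, had 0.28 ± 0.12 (adjusted *P* = 0.965) and 0.20 ± 0.10 (adjusted *P* = 0.974). No gene was called among 24 of the prostaglandin and fever list (median, -0.00063) or 23 of preoptic thermoregulatory neurons, of which 16 were negative (median, -0.0787, and 0.0145 without the libraries with *Prl* above 10 times the floor). Among all protein-coding genes, 48.1% were positive. In the thermoregulatory list *Adcyap1*, the peptide PACAP of warm-responsive neurons, had -0.23 ± 0.12 (adjusted *P* = 0.993).

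No gene of reproduction was called. *Gm28040*, which spans the *Kiss1* locus, lay at 45.3 to 79.1 at 14 days (median, 53.7) and at 48.8 to 96.3 at 4 months (median, 77.1), beside 88.1 to 191 in intact mice. All 14-day libraries lay below the intact ones, and the 2 OVX groups overlapped. Its log2 fold change was 0.40 ± 0.15 (adjusted *P* = 0.903), from 1 of the 2 entries that carry this name. *Kiss1* itself was near the floor, at 21.9 to 43.4 and 22 to 46.3, and was not tested. The tachykinin gene *Tac2* and its receptor gene *Tacr3* had -0.03 ± 0.13 and -0.12 ± 0.09, the opioid precursor *Pdyn* had -0.04 ± 0.23, and *Gnrh1* had -0.12 ± 0.40 (adjusted *P* = 1 for each). The estrogen receptor gene *Esr1* and the progesterone receptor gene *Pgr* had -0.05 ± 0.23 and -0.08 ± 0.06 (adjusted *P* = 1 for each). Of 31 reproductive peptides and receptors, 10 were positive and 21 negative, beside 48.1% positive among all protein-coding genes. Their median was -0.051, and that of 57 genes of the estrogen response was -0.0282. Without the libraries with *Prl* above 10 times the floor these medians were 0.112 and 0.0315, and *Esr1* and *Gnrh1* had 0.40 ± 0.27 and 0.45 ± 0.62. *Npffr1*, the receptor for the peptide RFRP-3, had 0.24 ± 0.15 (adjusted *P* = 1).

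*Gpr17*, which marks precursors on their way to myelinating oligodendrocytes, had values of 2220 to 2813 at 14 days (median, 2552) and of 1686 to 2196 at 4 months (median, 1955). All 6 libraries at 4 months lay below all at 14 days, and the log2 fold change was -0.36 ± 0.08 (adjusted *P* = 0.291). The median over the 12 precursor genes was -0.00925, and *Sox10*, the transcription factor of the whole lineage, had 0.14 ± 0.08 (adjusted *P* = 1). Of 12 genes of mature oligodendrocytes, 10 were positive, beside 48.1% of all protein-coding genes. Their median was 0.0752, which was 0.021 without replicate 6 of the 14-day group. *Mobp*, *Ermn* and *Mbp*, proteins of myelin, had 0.27 ± 0.08, 0.19 ± 0.08 and 0.17 ± 0.07 (adjusted *P* = 0.713, 0.914 and 0.965).

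The clustered protocadherins, adhesion proteins by which neurites of a neuron recognize each other, had 30 members tested, 24 of them positive. The median was 0.115, at 0.0739 and 0.17 within the batches. At an unadjusted *P* under 0.05, 7 members were higher and none was lower. Of all protein-coding genes, 2.46% were higher at that level and 48.1% were positive. *Pcdhga2* had values of 789 to 899 at 14 days (median, 849.6) and of 913 to 1167 at 4 months (median, 1052), without overlap, and a log2 fold change of 0.30 ± 0.06 (adjusted *P* = 0.279). *Pcdhb13*, *Pcdhb2* and *Pcdhb22* had 0.33 ± 0.09, 0.30 ± 0.10 and 0.20 ± 0.07 (adjusted *P* = 0.702, 0.812 and 0.846). The members of the gamma cluster share their last exons, so that reads there cannot be assigned to 1 member with certainty.

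No vascular gene was called, and the batches differed. Beside the counts that follow, 48.1% of all protein-coding genes were positive. Of 17 endothelial genes 13 were positive, with medians of 0.209 within batch 1 and -0.000169 within batch 2, and of 11 mural genes 8 were positive, with 0.409 and -0.0136. *Kdr*, the main receptor for VEGF, had values of 567 to 748 at 14 days (median, 604.5) and of 555 to 1460 at 4 months (median, 886), and its log2 differences were 0.89 within batch 1 and 0.18 within batch 2 (fit, 0.53 ± 0.16, adjusted *P* = 0.715). *Abcc9*, a subunit of the potassium channel of pericytes, had 331 to 475 (median, 397) and 396 to 788 (median, 591), with 0.52 ± 0.12 (adjusted *P* = 0.451) and 0.62 and 0.43 within the batches. *Flt1*, *Vwf* and *Eng*, genes of endothelial cells, had 0.32 ± 0.09, 0.49 ± 0.18 and 0.27 ± 0.12 (adjusted *P* = 0.702, 0.855 and 0.965), and *Rgs5* and *Pdgfrb*, genes of pericytes, had 0.25 ± 0.07 and 0.22 ± 0.08 (adjusted *P* = 0.593 and 0.846). *Adm*, the vasodilator peptide adrenomedullin, listed here with ependymal genes, had 0.68 ± 0.24 (adjusted *P* = 0.855). All 9 genes of red blood cells were positive, with a median of 0.751 within batch 1 and 0.0701 within batch 2, and *Alas2*, *Slc4a1* and *Hba-a1*, of heme synthesis, the red cell membrane and hemoglobin, had 0.36 ± 0.16, 0.75 ± 0.37 and 0.42 ± 0.24 (adjusted *P* = 0.965, 0.993 and 1). The part of blood in the vascular values was not tested.

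No gene of cholesterol synthesis or of protein folding was called. Beside the counts of both lists, 48.1% of all protein-coding genes were positive. Of 24 cholesterol genes 21 were negative, with a median of -0.0696 over all libraries, -0.113 within batch 1 and -0.0151 within batch 2. *Idi1*, an isomerase of the mevalonate pathway, had values of 3270 to 5195 at 14 days (median, 4188) and of 3004 to 3999 at 4 months (median, 3568), with a log2 fold change of -0.24 ± 0.05 (adjusted *P* = 0.291). The enzymes *Cyp51*, *Hmgcs1* and *Sc5d* had -0.17 ± 0.05, -0.17 ± 0.06 and -0.14 ± 0.05 (adjusted *P* = 0.735, 0.812 and 0.819). Of 30 heat shock and endoplasmic reticulum chaperones 28 were negative, with a median of -0.108, at -0.18 and -0.00892 within the batches. *Hsph1*, a cytosolic chaperone, had -0.20 ± 0.06 (adjusted *P* = 0.731), and the disulfide isomerases *Pdia3*, *Pdia4* and *Pdia6* had -0.12 ± 0.04, -0.18 ± 0.07 and -0.13 ± 0.05 (adjusted *P* = 0.819, 0.914 and 0.93).

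Late response genes lie downstream of AP-1 and CREB, and none was called. Of 22 tested, 11 were positive and 11 negative, with a median of -0.0096. *Plk2*, a kinase of synaptic scaling, had 0.21 ± 0.08 (adjusted *P* = 0.903), *Crem*, a modulator of CREB, had -0.19 ± 0.08 (adjusted *P* = 0.965), and *Scg2*, a secretogranin of dense-core vesicles, had -0.15 ± 0.07 (adjusted *P* = 0.965). Medians near 0 were also found for 23 clock genes (0.00746), 15 neuronal genes (0.00722), 37 glutamate and GABA receptor subunits (0.0274), 25 genes of the perineuronal net (-0.00774), and 24 targets of senescence and p53 (-0.0218), of which *Btg2* was the only one called. The lists that mark neighboring structures had medians of 0.103 for 12 striatal, 0.165 for 12 cortical and hippocampal, -0.124 for 12 choroid plexus genes, all 12 of them negative, -0.152 for 14 posterior and tuberal hypothalamic genes, 12 of them negative, 0.00522 for 12 thalamic and 0.0528 for 12 septal genes. Without replicate 6 of the 14-day group the medians were 0.105 for the choroid plexus, 0.00843 for the posterior hypothalamus, 0.154 for the thalamus and -0.0129 for the septum. None of their members was called, and the part of the dissection in these values was not tested. Over all protein-coding genes, the shares were 48.1% positive and 0.0309% called.

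**Figure D5:**
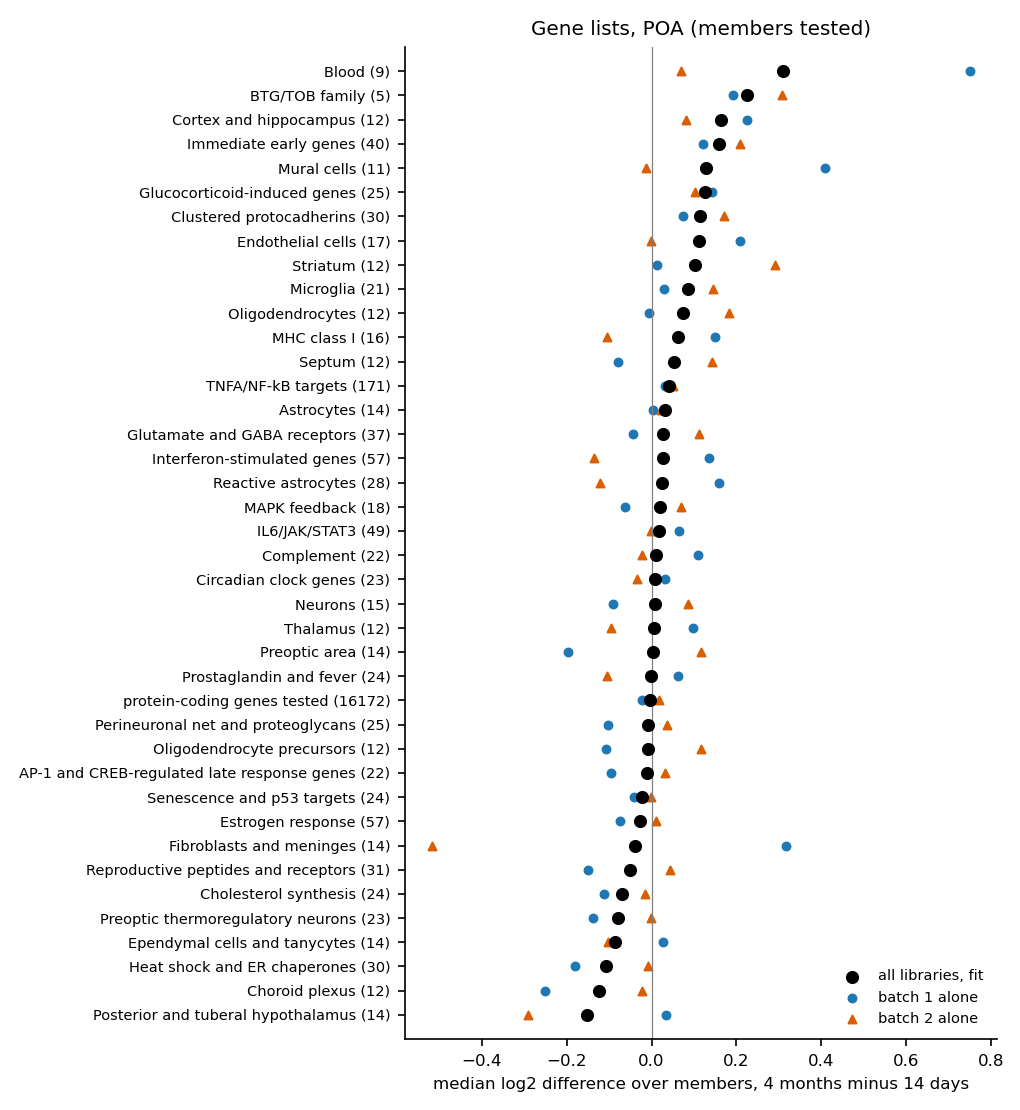
Median log2 difference over the members of each gene list (x axis, 4 months minus 14 days after OVX in the POA), with the number of members tested beside the name (y axis). Black points are the fit over all libraries, blue circles and orange triangles are batch 1 and batch 2 alone, and the pituitary list, at -2.27, lies outside the range drawn and is left out.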

How the data were processed

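The authors made stranded mRNA libraries, pseudoaligned them with kallisto on genome build mm39, imported them with tximport and analyzed them in DESeq2. The step by which the authors made the deposited signal is not given in the sources used here. The values are decimal, with a floor at 22.1, so they are normalized signal and not counts, and depth and counting error cannot be recovered. Log2 values without a pseudocount were fitted in R 4.3.3 with limma 3.58.1 instead of a count model, with trend and robust variance, over 17 POA libraries in 3 groups. The covariate was the first surrogate variable (SV1), rebuilt in base R with 5 rounds of iterative reweighting, which correlated with batch at 0.975. *P* values were adjusted by Benjamini-Hochberg over all genes tested. The fit was tested on simulated data. Gene types and positions come from GENCODE M39. The difference between regions was fitted over 33 libraries. The members and gene lists, written by hand, were chosen with earlier results of these data known. Named genes are those called, the called members and up to 4 members with the smallest *P* of a list, a set of genes of reproduction, fever and inflammation, and the 5 with the smallest *P* between regions. Alternatives varied the covariate, the libraries, the filter, the scale, the normalization and the variance model. Leaving out the libraries with *Prl* above 10 times the floor and adding the pituitary level were alternatives added after seeing the data.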

Additional observations from a re-analysis of the deposited data

Results flagged for a closer look

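Over the 24 tested genes whose libraries were printed, the highest and lowest library of each OVX group were compared with their neighbors, which gave 48 gene and group pairs. In 3 of these, 1 library lay far from the other 5. *Gfap* and *Vim* were not among the 24. In replicate 6 of the 14-day group they stood at 16320 and 3517, with the next 14-day libraries at 9010 and 1832. Chance alone gives such a library in about 5% of groups. *Cebpd* at 4 months was 95.86 in replicate 1, with the next library at 153. *Kdr* at 14 days was 748.4 in replicate 6, the library that stood apart in its sum and its regional markers, with the next at 632. *Prl* at 4 months was 36.48 in replicate 5, with the next at 24 and the floor at 22.1, so that all 6 values are close to the floor.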

How the results depend on the processing

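The 6 genes called kept their direction under all 31 alternatives run for single genes. These alternatives refit the libraries in which the genes were called, so their number does not measure independent support. For *Btg2*, batch in place of SV1, no covariate and the replicate block gave the same 0.9415. This was fixed in advance, since both OVX groups are balanced over batches and replicate numbers. The number of protein-coding genes called, 5, moved to 1 without a covariate, to 2 within batch 1, to 0 within batch 2 (smallest adjusted *P* = 0.109, 378 with an unadjusted *P* under 0.05), to 2 with a replicate block, and, in alternatives chosen after seeing the data, to 0 without the libraries with *Prl* above 10 times the floor and to 0 with the pituitary level as a covariate (536 with an unadjusted *P* under 0.05). Batch in place of SV1 gave 5, and the same 5. With only the 12 libraries and batch as covariate, 4 were called by limma. *Tob1* then lost its call (adjusted *P* = 0.0661), and *Npas4* and *Depp1* stood at 0.0493 each. With each of the 17 libraries left out in turn it ranged from 3 to 6, and was 3 without replicate 2 or replicate 3 of the 14-day group. *Depp1* lost its call in 11 of these 17, *9630013A20Rik* in 7 and *Tob1* in 2, and *Btg2*, *Dusp1* and *Npas4* kept theirs in all 17. Equal replicate numbers did not pair the libraries, since deviations within batch correlated at -0.0988 to 0.192, and of the 2 genes called with the replicate block 1 was among the 5. With a replicate block across regions, 0 genes differed between them. Among the named genes that were not called, *Ier2* was called under 3 alternatives and *Ccn1* and *Nr4a1* under 1 each, and 12 changed sign under at least 1. Of 40 list medians, 10 had the opposite sign within batch 1 and 14 within batch 2. With 1 of the 12 libraries left out at a time, 22 of the 40 medians changed sign at least once, 11 of them without replicate 6 of the 14-day group and 9 without replicate 5 at 4 months. Without the libraries with *Prl* above 10 times the floor, 11 changed sign. The median of the immediate early genes lay between 0.099 and 0.188, that of the reproductive list between -0.144 and 0.0114, and that of the MHC class I list between -0.0287 and 0.209. Depth is unknown for these values, so a count model was not run.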
